A study of Caenorhabditis elegans with 12 samples.

Results

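The genes described here encode the oocyte-made proteins of the Caenorhabditis elegans eggshell and the membrane and cortical proteins that act when a sperm activates the egg. They were taken by name, and all 10 (cbd-1, perm-2, perm-4, egg-1, egg-2, egg-3, chs-1, cpg-1, cpg-2 and cpg-3) were found among the 46748 genes of the count table. All 10 were also among the 14567 genes with enough counts to test.

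A worm oocyte is loaded with eggshell proteins before it is ovulated, and a vitelline layer already covers it when it meets sperm. Sperm entry starts cortical granule release and chitin synthesis, and the new layers form beneath the vitelline layer in order: chitin, then chitin-binding chondroitin proteoglycans, then a barrier that keeps small molecules out. The transcripts that direct these steps are made in the growing germline, so in an egg-laying hermaphrodite they are among the abundant messenger RNAs of the whole animal.

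RNA from whole N2 hermaphrodites (the wild-type laboratory strain) was sequenced in 4 groups of 3 libraries. These were L4440 at an age of 1 day, bcat-1 at 1 day, L4440 at 2 days and bcat-1 at 2 days. The source names read 1 day or 2 days and do not name the stage from which the days are counted. L4440 is the empty vector of feeding RNAi, in which worms eat bacteria that make double-stranded RNA, and the bcat-1 vector targets the enzyme that removes the amino group of the branched-chain amino acids. All groups share the strain, the sex and the RNAi feeding, and the study asked how bcat-1 knockdown and age relate to gene expression. The labels do not say that the 3 libraries of a group are separate cultures, so p-values measure only the spread between these samples, which may be technical. A whole worm also holds embryos, intestine, epidermis and gonad, and a change in the number of oocytes and a change in the RNA of each oocyte cannot be told apart.

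Library totals ran from 29291731 to 43855795 counts, and levels are given as CPM, counts scaled to a common library size after TMM correction of the sizes. The bcat-1 transcript was at 116 CPM or more in each of the 6 L4440 libraries and at 27.1 CPM or less in 5 bcat-1 libraries. The library labelled bcat-1 day 2 replicate 3 held 329 CPM, more than any L4440 library, which goes against its label, and ribosomal RNA genes took 41.5% of its counts. In the other 11 libraries ribosomal RNA genes took 0.0724% to 6.74%. The library labelled bcat-1 day 2 replicate 3 was kept. Values without it are given for some of the estimates that moved, not for all.

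The oocyte content of the libraries was checked with 18 oocyte regulators such as oma-1, oma-2 and puf-5, all of them detected in every library. Their summed level ran from 11140 to 14160 CPM. Sperm markers summed to 5.70 to 8.95 CPM over 35 genes. Many of these belong to the msp family, and how reads that match more than 1 gene were counted is not given. The sum may therefore be too low, and it does not measure the sperm content. The 10 eggshell and egg activation genes together took 10670 to 13380 CPM, and 1.11% to 1.35% of all counts in 11 libraries. Their share was 0.780% of the library labelled bcat-1 day 2 replicate 3, where ribosomal RNA filled much of the total.

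Each of the 10 genes is protein coding, and positions are given on WBcel235. cbd-1 (WBGene00010351) lies on chromosome IV at 11372991 to 11377627. perm-2 (WBGene00016636) at 1126790 to 1128865 and perm-4 (WBGene00016638) at 1121494 to 1125107 are also on chromosome IV. They are neighbours, read away from each other, with 1682 bases between them. egg-1 (WBGene00015083, 5728180 to 5730159), egg-2 (WBGene00019811, 7058527 to 7060583), cpg-1 (WBGene00000465, 4489359 to 4491392) and cpg-2 (WBGene00015102, 7102092 to 7103990) are on chromosome III. egg-3 (WBGene00009701) is on chromosome II at 10882408 to 10884441. chs-1 (WBGene00000496) and cpg-3 (WBGene00011063) are on chromosome I, at 7554855 to 7559916 and at 7244937 to 7246295.

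The genes differ in exon length, which matters for the comparisons at day 2. perm-2 has 736 exon bases, cpg-3 1028 and perm-4 1106, while cbd-1 has 4221 and chs-1 4293, and the remaining 5 have 1723 to 1889. In 5 of the genes a few exon bases overlap another gene. For egg-1, egg-3, perm-2 and cpg-3 the overlapping gene had at most 5.19 CPM in any library, and for chs-1 the overlap with T25G3.3 (138 CPM on average) spans 5 bases. egg-1 and egg-2 are close paralogs, and how reads that match both were counted is not given in the sources used here, so the split of reads between them is uncertain.

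Per kilobase of exon, perm-2 was the most abundant of the 10 transcripts, with 1681 ± 320 CPM per kb (SD over 12 libraries). cpg-2 followed with 1298 ± 149 CPM per kb, then perm-4 with 1078 ± 154 and cpg-1 with 801 ± 63.6. cbd-1 stood at 753 ± 75.9 CPM per kb, cpg-3 at 493 ± 47.0 and egg-1 at 450 ± 35.4. Thus the transcripts of the vitelline layer proteins and of the chondroitin proteoglycans held the upper part of the order. Those of the membrane and cortical proteins held the lower part. egg-2 stood at 186 ± 14.0 CPM per kb, chs-1 at 118 ± 17.1 and egg-3 at 94.8 ± 5.97. In 9 to 12 of the 12 libraries each transcript exceeded the next in this order. The order was least fixed between cpg-1 and cbd-1, where cpg-1 was the higher in 9 libraries, and between cpg-2 and perm-4 and between cpg-3 and egg-1, each in 10. Without correction for length, cbd-1 ranked 10 and cpg-2 ranked 19 of the 14567 genes tested by mean CPM, and egg-3 ranked 1160.

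**Figure D1:**
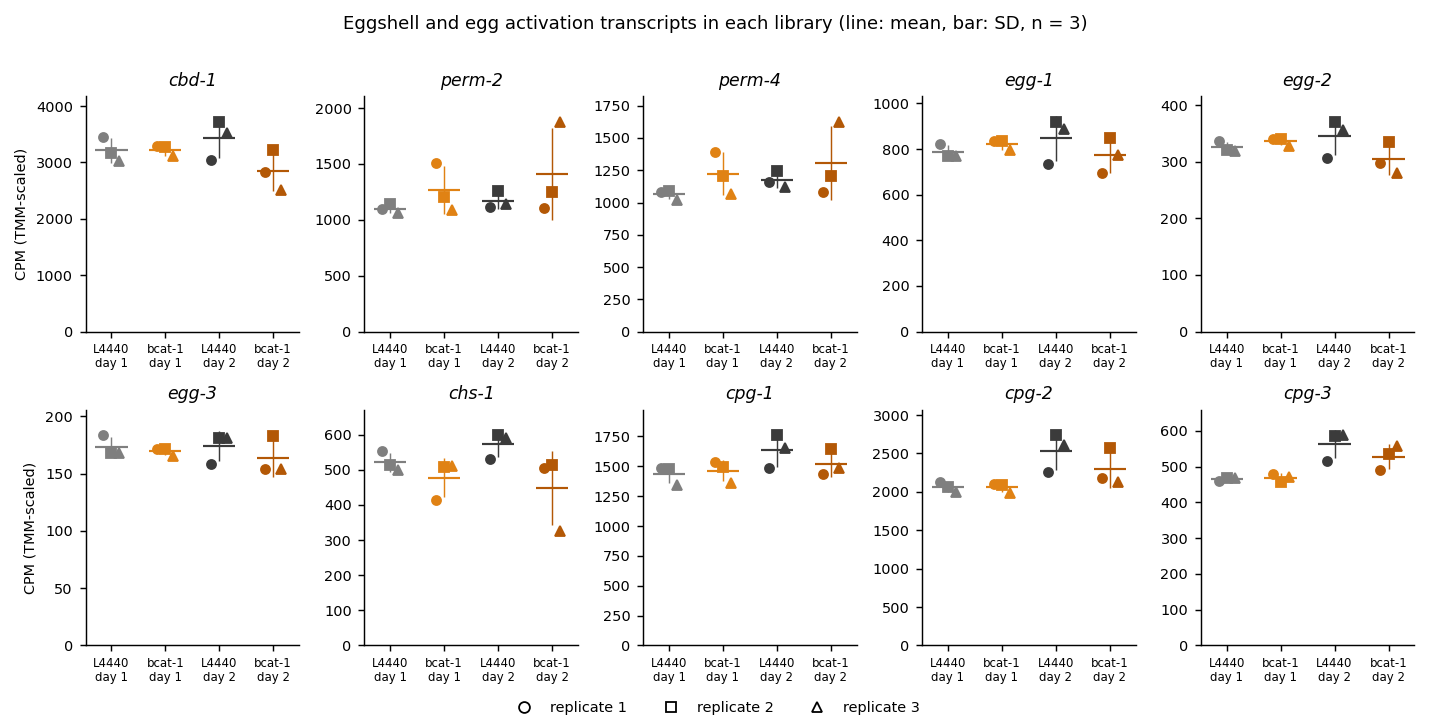
Level of each of the 10 transcripts in CPM (vertical axis, starting at 0) in the 12 libraries, by group; symbols are replicates, lines are group means and bars are SD (n = 3). Most panels are close to flat, cpg-2 and cpg-3 are higher in all 6 day 2 libraries than in all 6 day 1 libraries, and the library labelled bcat-1 day 2 replicate 3 stands high for perm-2 and perm-4 and low for chs-1.

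The vitelline layer transcripts are described before the others. CBD-1 is the chitin-binding protein that holds this layer together. The cbd-1 transcript stood at 3458, 3162 and 3023 CPM in L4440 day 1 and at 3286, 3266 and 3106 CPM in bcat-1 day 1, so the day 1 groups overlapped. At day 2 it stood at 3035, 3724 and 3522 CPM on L4440 and at 2832, 3217 and 2512 CPM on bcat-1. The lowest of the 12 values was that of the library labelled bcat-1 day 2 replicate 3.

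PERM-2 and PERM-4 are vitelline layer proteins without which the embryo becomes permeable. perm-2 stood at 1099, 1144 and 1060 CPM in L4440 day 1, at 1504, 1202 and 1086 CPM in bcat-1 day 1, and at 1119, 1258 and 1139 CPM in L4440 day 2. In bcat-1 day 2 it stood at 1106, 1251 and 1879 CPM. Replicate 1 of bcat-1 day 1 and the library labelled bcat-1 day 2 replicate 3 were the highest 2 of the 12, and the other 10 lay between 1060 and 1258 CPM. perm-4 had its highest values in the same pair of libraries, with 1395 and 1627 CPM, and 1018 to 1248 CPM in the other 10.

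EGG-1 and EGG-2 are membrane proteins of the oocyte with LDL-receptor repeats, and sperm cannot enter when both are lacking. egg-1 stood at 823, 771 and 768 CPM in L4440 day 1, at 835, 835 and 794 CPM in bcat-1 day 1, at 736, 920 and 886 CPM in L4440 day 2 and at 695, 849 and 775 CPM in bcat-1 day 2. egg-2 stood at 336, 321 and 319 CPM, at 340, 339 and 328 CPM, at 307, 371 and 356 CPM and at 298, 335 and 280 CPM in the same order. For both genes the 4 groups overlapped, and the day 2 libraries were spread more widely than the day 1 libraries.

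EGG-3 is a phosphatase-like protein that holds the chitin synthase and the kinase MBK-2 at the egg cortex, and CHS-1 is the chitin synthase of the eggshell. egg-3 was the steadiest of the 10 transcripts, between 154 and 183 CPM in the 12 libraries, with an SD of 0.09 on the log2 scale. chs-1 stood at 553, 513 and 501 CPM in L4440 day 1 and at 414, 507 and 511 CPM in bcat-1 day 1. At day 2 it stood at 532, 598 and 590 CPM on L4440 and at 506, 514 and 327 CPM on bcat-1. Its lowest 2 values were those of bcat-1 day 1 replicate 1 and of the library labelled bcat-1 day 2 replicate 3, the libraries in which perm-2 and perm-4 were highest.

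CPG-1 and CPG-2 are chitin-binding chondroitin proteoglycans of the inner eggshell, released from cortical granules, and CPG-3 is another chondroitin proteoglycan of the eggshell. cpg-2 stood at 2122, 2059 and 1996 CPM in L4440 day 1 and at 2103, 2093 and 1985 CPM in bcat-1 day 1. It stood at 2258, 2735 and 2607 CPM in L4440 day 2 and at 2176, 2575 and 2127 CPM in bcat-1 day 2. Every day 2 library was therefore above every day 1 library. cpg-3 showed the same separation of ages, with 461, 469 and 469 CPM in L4440 day 1, 480, 457 and 471 CPM in bcat-1 day 1, 516, 585 and 587 CPM in L4440 day 2 and 489, 535 and 557 CPM in bcat-1 day 2. cpg-1 did not separate the ages, with 1345 to 1535 CPM in the 6 day 1 libraries and 1432 to 1759 CPM in the 6 day 2 libraries.

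At day 1, no difference of these genes between bcat-1 RNAi and L4440 was detectable. None of the 10 passed the edgeR quasi-likelihood test with Benjamini-Hochberg adjustment over all genes tested, where 0 of 14567 genes (0%) passed. None reached an unadjusted p under 0.05, as 297 of all genes did, and none passed with DESeq2, which called 16 genes (0.110%), or with limma-voom, which called 0. The median log2 fold change of the 10 genes was 0.02, and that of all genes tested was 0.01. The largest estimates were those of perm-2 (0.20, SE 0.18) and perm-4 (0.20, SE 0.15), and without bcat-1 day 1 replicate 1 they were 0.06 (SE 0.19) and 0.09 (SE 0.16). The smallest was that of cpg-2 (0.00, SE 0.10). Intervals at 95% reached from -0.47 to 0.59 on the log2 scale over the 10 genes, and for egg-3, the narrowest but for cpg-3, from -0.23 to 0.16. Changes within those bounds are not excluded, and the p-values do not show that the groups are alike. The intervals are not adjusted for the number of genes tested and are not limits of detection.

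At day 2, none of the 10 genes passed the edgeR test between bcat-1 RNAi and L4440, where 61 genes (0.419%) did. DESeq2, which called 1.34% of genes, and limma-voom called none of the 10 either. At an unadjusted p under 0.05 there were 2 of the 10, against 1051 of all 14567 genes. These were cbd-1, with a log2 fold change of -0.26 (SE 0.12, edgeR adjusted p = 0.671), and chs-1, with -0.35 (SE 0.16, adjusted p = 0.671). chs-1 was also the only member whose bcat-1 values all lay under the L4440 values, which was so for 4.24% of all genes. The median of the 10 genes was -0.12 and that of all genes -0.02, with 8 estimates below 0 and 2, perm-2 (0.27, SE 0.18) and perm-4 (0.15, SE 0.15), above it. Of all genes tested, 46.9% had estimates above 0.

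Several of these day 2 estimates rest on the library labelled bcat-1 day 2 replicate 3. Without it the log2 fold change of perm-2 moved from 0.27 to -0.01 (SE 0.13) and that of perm-4 from 0.15 to -0.05 (SE 0.12). That of chs-1 moved from -0.35 to -0.19 (SE 0.11), and that of cbd-1 from -0.26 to -0.20 (SE 0.13). With bcat-1 day 1 replicate 1 left out as well, perm-2 stood at 0.00 (SE 0.09), perm-4 at -0.05 (SE 0.09), chs-1 at -0.18 (SE 0.07) and cbd-1 at -0.19 (SE 0.12). None of the 4 passed the edgeR test in either case, and the smallest adjusted p was 0.779, that of chs-1 without both libraries.

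The remaining 6 genes had log2 fold changes between -0.18 (egg-2, SE 0.09) and -0.08 (egg-3, SE 0.09) at day 2. For egg-1 the estimate was -0.13 (SE 0.10), for cpg-2 -0.14 (SE 0.10), for cpg-1 -0.10 (SE 0.10) and for cpg-3 -0.09 (SE 0.08). Their intervals at 95% all included 0, and the lowest bound among them was -0.38. The difference between the RNAi effects of day 2 and day 1 was also tested, and none of the 10 genes passed with edgeR, as none of the 14567 genes (0%) did. DESeq2 called 13 genes (0.0892%) and limma-voom 0, none of them among the 10, and no member had an unadjusted edgeR p under 0.05, as 385 of all genes had. The median difference was -0.14 over the 10 genes and -0.03 over all genes. Without the library labelled bcat-1 day 2 replicate 3 the difference of chs-1 moved from -0.22 to -0.04 (SE 0.15). That of cbd-1 moved from -0.27 to -0.18 (SE 0.17). The day 2 RNAi estimates without that library were -0.11 for cpg-2 (SE 0.12) and -0.10 for cpg-1 (SE 0.12).

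**Figure D2:**
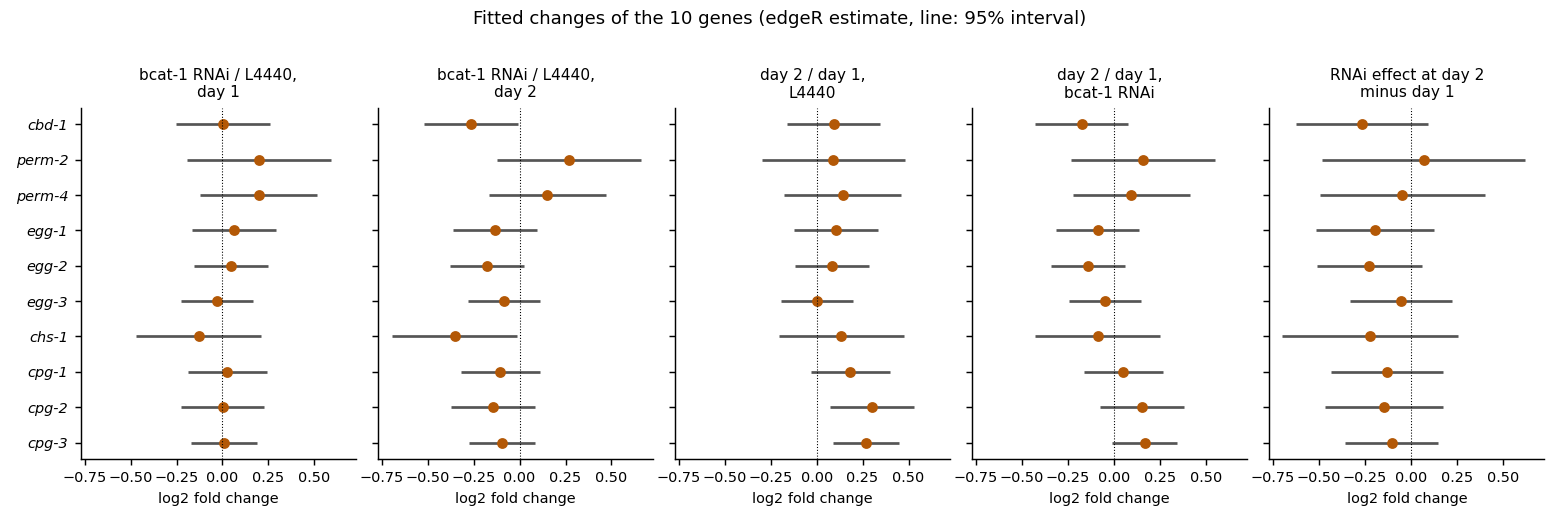
edgeR log2 fold changes of the 10 genes (points) with 95% intervals (lines) in the 5 comparisons; the dotted line marks no change. Nearly all intervals include 0, those of cbd-1 and chs-1 at day 2 lie just below it, and those of cpg-2 and cpg-3 between the ages on L4440 lie above it, with no adjusted p under 0.05.

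Between day 1 and day 2 on L4440, the chondroitin proteoglycans had the largest differences. cpg-2 was higher at day 2 by 0.30 on the log2 scale (SE 0.10, edgeR adjusted p = 0.143) and cpg-3 by 0.27 (SE 0.08, adjusted p = 0.102). cpg-1 was next with 0.18 (SE 0.10, adjusted p = 0.370). None of the 10 genes passed the edgeR test, where 335 genes (2.30%) did, none passed with limma-voom, and DESeq2, which called 6.86% of genes, called cpg-3 (adjusted p = 0.0279). At an unadjusted p under 0.05 there were 2 of 10 genes and 2632 of 14567. The day 2 values of cpg-2, cpg-3 and perm-4 all lay above their day 1 values, 3 of 10 genes, and this was so for 11.7% of all genes. All 10 estimates were above 0, the lowest being that of egg-3 (0.004), and so were 49.8% of all genes. The median of the 10 was 0.12, while the median of all genes was 0.00. The 10 genes varied together between libraries, so their signs are not 10 separate results. Their mean log2 CPM, less the mean of all libraries, was -0.04, 0.182 and 0.115 in replicates 1, 2 and 3 of L4440 day 2.

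On bcat-1 RNAi, cpg-3 and cpg-2 were again the members with day 2 values all above the day 1 values, 2 of 10 genes against 11.1% of all genes. The log2 fold change was 0.17 for cpg-3 (SE 0.08, edgeR adjusted p = 0.305) and 0.15 for cpg-2 (SE 0.10, adjusted p = 0.473). Without the library labelled bcat-1 day 2 replicate 3 these were 0.105 (SE 0.09) and 0.18 (SE 0.12). No member passed the edgeR test, where 593 genes (4.07%) did, none passed with DESeq2, where 7.01% did, or with limma-voom, and none had an unadjusted p under 0.05, as 2720 of all genes had. The other 8 genes lay between -0.17 (cbd-1, SE 0.12) and 0.16 (perm-2, SE 0.18), and the median of the 10 was 0.00. Without the library labelled bcat-1 day 2 replicate 3 the estimates were -0.12 for perm-2 (SE 0.13), -0.12 for perm-4 (SE 0.12), -0.11 for cbd-1 (SE 0.13) and 0.07 for chs-1 (SE 0.11). That of perm-2 thus changed sign with 1 library.

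When the age difference was averaged over the 2 foods, a contrast added after the values had been seen, cpg-3 rose and was the only member to pass. Its level was 16.4% higher at day 2 (95% interval 6.61% to 27.1%), a log2 fold change of 0.22 (SE 0.06, edgeR adjusted p = 0.0274). cpg-2 was 17.0% higher (4.66% to 30.8%), a log2 fold change of 0.23 (SE 0.07, adjusted p = 0.0609), and did not pass. So 1 of 10 genes passed where 2102 of 14567 genes (14.4%) did, which is under the background. DESeq2 called both cpg-2 and cpg-3, where it called 17.4% of genes. Both genes were higher in all 6 day 2 libraries than in all 6 day 1 libraries, 2 of 10 genes against 3.27% of all genes. cpg-1, with 0.12 (SE 0.07, adjusted p = 0.303), and the other 7 genes, between -0.04 (cbd-1, SE 0.08) and 0.12 (perm-2, SE 0.13), did not pass. Without the library labelled bcat-1 day 2 replicate 3 the estimate of perm-2 was -0.03 (SE 0.09) and that of perm-4 0.00 (SE 0.08). The call of cpg-3 was not stable: it held in 4 of the 12 fits with 1 library left out. Over those 12 fits its log2 fold change ran from 0.18 to 0.25, and its edgeR adjusted p from 0.0224 to 0.0846, on both sides of the threshold. The call was lost without any of the 3 L4440 day 1 libraries, without bcat-1 day 1 replicate 1 or 2, without L4440 day 2 replicate 2 or 3 and without the library labelled bcat-1 day 2 replicate 3.

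Averaged over the ages, the same added kind of contrast gave no call for bcat-1 RNAi among the 10 genes with edgeR, where 50 genes (0.343%) passed, and none with DESeq2, where 1.08% passed, or limma-voom. chs-1 alone had an unadjusted p under 0.05 (-0.24, SE 0.11, edgeR adjusted p = 0.791), as 917 of all genes had. Its estimate was -0.17 (SE 0.07) without the library labelled bcat-1 day 2 replicate 3, -0.11 (SE 0.05) without bcat-1 day 1 replicate 1 as well, and -0.15 (SE 0.07) with an offset for exon length, and it passed in none of these fits. That of perm-2 was 0.23 over all 12 libraries and 0.09 (SE 0.09) without the library labelled bcat-1 day 2 replicate 3.

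The proteoglycans were also set against egg-1 within each library, a comparison chosen after the values had been seen and given as a description. There were 2.50 to 2.67 reads of cpg-2 for each read of egg-1 in the 6 day 1 libraries and 2.75 to 3.13 in the 6 day 2 libraries. For cpg-3 the ratio was 0.548 to 0.611 at day 1 and 0.631 to 0.719 at day 2. These ratios did not overlap between the ages, and they need no scaling of the library sizes. For cpg-1 against egg-1 they overlapped, with 1.72 to 1.92 at day 1 and 1.87 to 2.06 at day 2. Set against cpg-1 instead, both genes overlapped between the ages. For cpg-2 the ratio was 1.37 to 1.484 at day 1 and 1.434 to 1.576 at day 2. Its lowest day 2 value was that of the library labelled bcat-1 day 2 replicate 3. For cpg-3 it was 0.3053 to 0.349 and 0.3262 to 0.3755. The share of all gene pairs whose ratios separate the ages was not computed. cpg-2 and egg-1 are of similar exon length (1723 and 1795 bases), while cpg-3 is shorter (1028 bases).

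**Figure D3:**
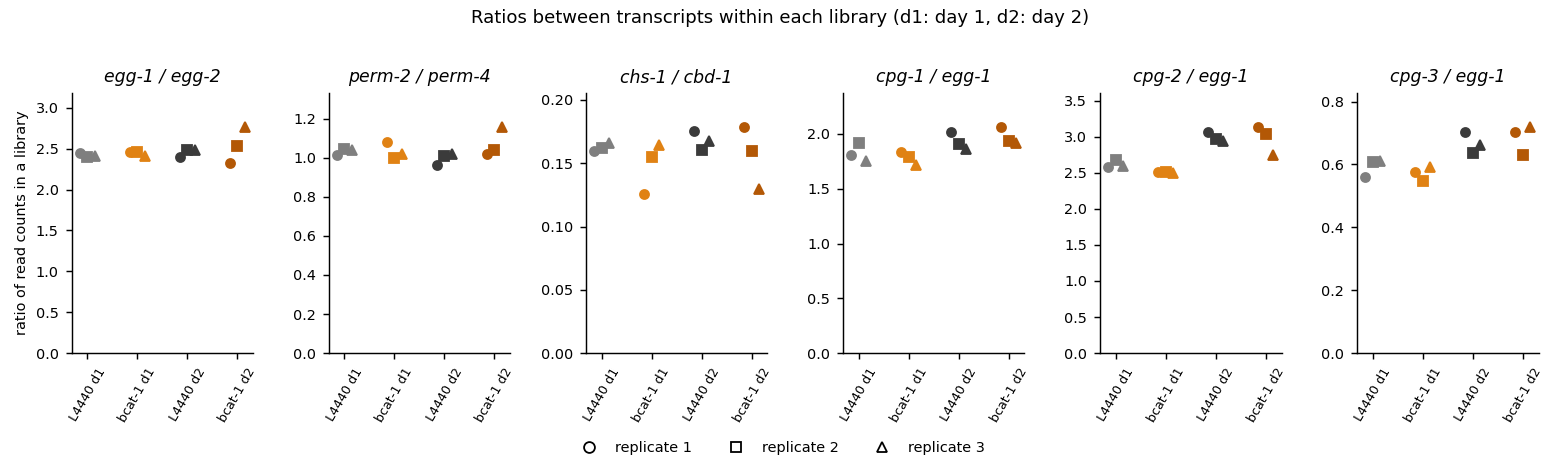
Ratios of read counts between pairs of transcripts within each library (vertical axes, starting at 0), by group (d1 is day 1, d2 is day 2); symbols are replicates. The ratio of egg-1 to egg-2 is nearly flat, the ratios of cpg-2 and cpg-3 to egg-1 are higher in every day 2 library, and that of chs-1 to cbd-1 is lowest in bcat-1 day 1 replicate 1 and the library labelled bcat-1 day 2 replicate 3.

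The ratio of the paralogs egg-1 and egg-2 was 2.33 to 2.53 in 11 libraries and 2.76 for the library labelled bcat-1 day 2 replicate 3. The neighbours perm-2 and perm-4 held a ratio of 0.964 to 1.08 in 11 libraries and 1.16 for the library labelled bcat-1 day 2 replicate 3. That of chs-1 to cbd-1 was 0.155 to 0.179 in 10 libraries. It was 0.126 in bcat-1 day 1 replicate 1 and 0.130 for the library labelled bcat-1 day 2 replicate 3, although these genes are of nearly equal exon length.

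The deviations of the genes were set against exon length in each library. A deviation is the log2 CPM of a gene in a library minus its mean over the 12 libraries. The steepest case was the library labelled bcat-1 day 2 replicate 3: the 3 genes of up to 1200 exon bases had a median deviation of 0.46 there, the 5 of 1700 to 1900 bases had -0.06, and the 2 of over 4000 bases had -0.47. Genes at large showed the same order there, with medians of 0.26 (5948 genes), -0.10 (997 genes) and -0.44 (747 genes). In bcat-1 day 1 replicate 1 the medians of all genes in these classes were 0.14, -0.01 and -0.26. Over all genes tested with a known length the slope for the library labelled bcat-1 day 2 replicate 3 was -0.24 on the log2 scale per doubling of length, and it was -0.41 over the 10 members. In bcat-1 day 1 replicate 1 it was -0.11 over all genes and -0.13 over the members, and in the other 10 libraries it ran from -0.004 to 0.084 over all genes. Over the members it ran from -0.005 to 0.123 in those 10 libraries. The 0.123 was that of L4440 day 1 replicate 1, where the slope over all genes was 0.043. It is near in size, in the other direction, to that of bcat-1 day 1 replicate 1. Deviations are centred on the 12 libraries, so steep falls in some libraries raise the slopes of the others. The sizes of these slopes therefore cannot be compared directly. An exon-length offset in the edgeR fit, added after the values had been seen, gave day 2 RNAi estimates of 0.11 for perm-2 (SE 0.12), 0.08 for perm-4 (SE 0.13), -0.23 for chs-1 (SE 0.10) and -0.12 for cbd-1 (SE 0.14). The age difference of cpg-3 over both foods was 0.24 with this offset (SE 0.06, edgeR adjusted p = 0.0147).

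**Figure D4:**
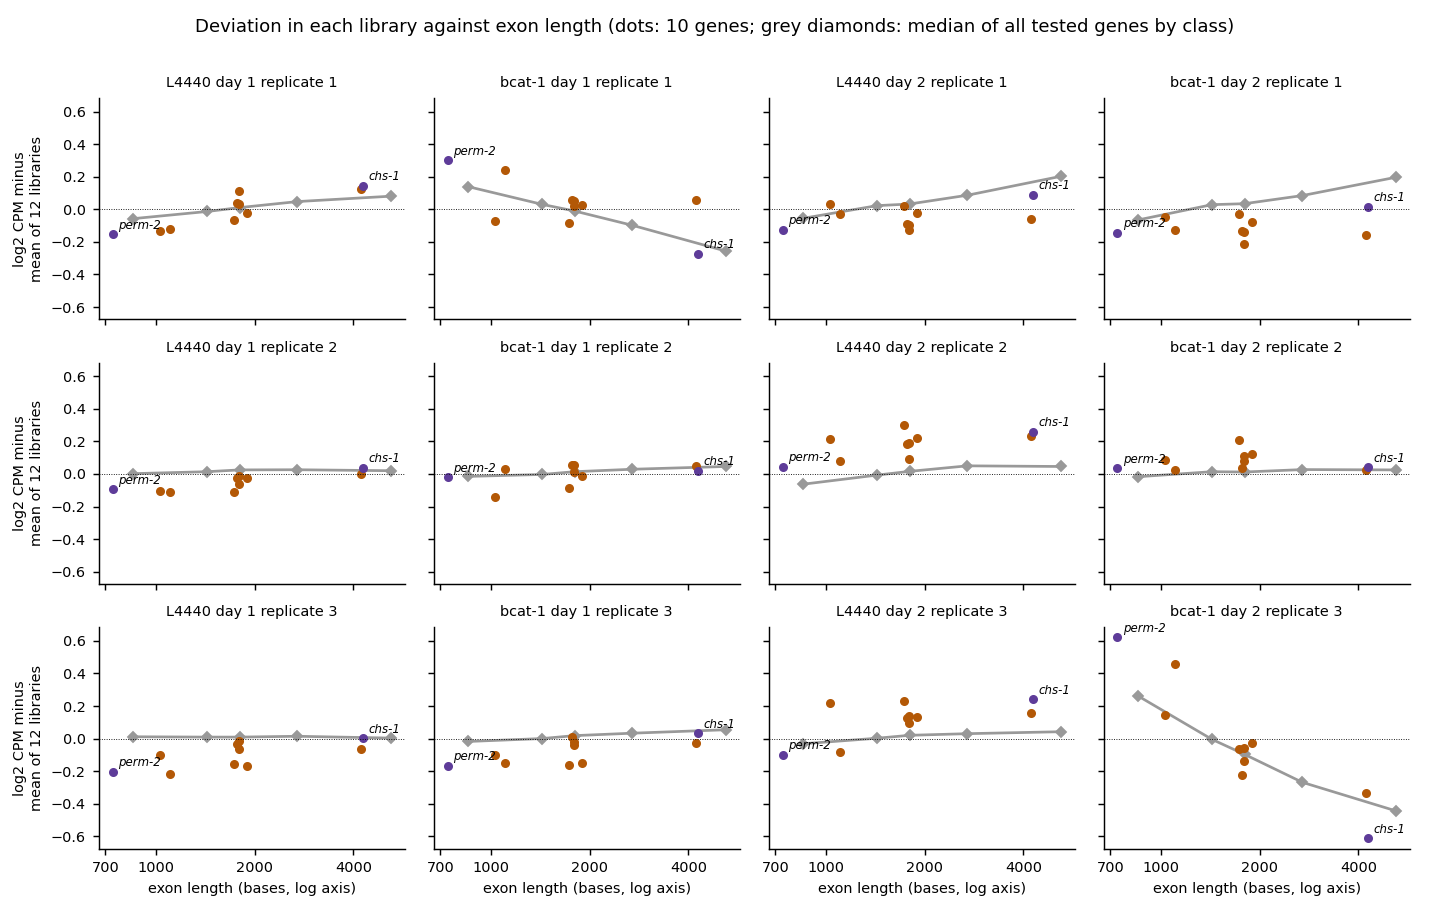
Deviation of each of the 10 genes (dots, perm-2 and chs-1 named) from its mean over 12 libraries, in log2 CPM (vertical axis), against exon length in bases (horizontal log axis), with 1 panel per library; grey diamonds are medians of all tested genes in 5 classes of length. The line slopes downward in bcat-1 day 1 replicate 1 and most steeply for the library labelled bcat-1 day 2 replicate 3, where perm-2 stands at 0.62 and chs-1 lies lowest.

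How the 10 transcripts moved with each other also differed with these 2 libraries. Over the 12 libraries the 45 pairs of genes had a median Pearson correlation of 0.45, and 8 pairs were below 0, down to -0.84 for perm-2 with chs-1. Without bcat-1 day 1 replicate 1 and the library labelled bcat-1 day 2 replicate 3 the median was 0.70, no pair was below 0, and the lowest value was 0.35. The highest correlations over those 10 libraries were those of egg-1 with egg-2 (0.99) and of cbd-1 with egg-2 (0.95), and cpg-2 with cpg-3 reached 0.95. These are descriptions over libraries that differ in age, food and RNA composition. Within groups the 10 genes had a median SD of 0.11 on the log2 scale, against 0.14 for the 2240 genes of at least 100 CPM, and 7 of the 10 were below that value.

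The genes whose pattern over the 12 libraries was most like the mean of the 10 were looked up among 8520 genes of at least 5 CPM. oma-2, a zinc-finger protein of oocyte maturation, was nearest with a Pearson correlation of 0.96 (0.97 without the 2 libraries with a length trend). tbc-3 followed with 0.95, abi-1 with 0.95, spas-1 with 0.92 and F58B3.6 with 0.92. Taken singly, perm-2 and perm-4 were each nearest to the other (0.98), and cbd-1 to egg-2 (0.97). egg-1 was nearest to puf-3 (0.93) and egg-3 to puf-5 (0.94), both RNA-binding proteins of the Pumilio family, and cpg-1 to oma-2 (0.97). egg-2 was nearest to tbc-20 (0.98), chs-1 to mogs-1 (0.99), cpg-2 to chtl-1 (0.97) and cpg-3 to W09C3.7 (0.93). No p-value belongs to these correlations, since the libraries share groups and the nearest gene is the highest of many.

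Genes that act with the 10 in the making of the eggshell gave no call with edgeR in any of the 5 comparisons of groups. These were 14 enzymes and transporters that make the sugar precursors of chitin and chondroitin, such as gfat-1 and sqv-5, 8 tested partners of egg activation, such as mbk-2 and egg-4, and 9 genes of the permeability barrier, such as perm-1 and fasn-1. DESeq2 and limma-voom called none of them either, and in a comparison at most 2 genes of a list had an unadjusted edgeR p under 0.05. For bcat-1 RNAi at day 2 the median log2 fold changes of these lists were -0.11, -0.13 and -0.12, beside -0.12 for the 10 genes and -0.02 for all genes. These medians include the library labelled bcat-1 day 2 replicate 3, where the mean deviations of the lists were -0.26, -0.23 and -0.22. In replicates 1 and 2 of bcat-1 day 2 they ran from -0.056 to 0.048, and in L4440 day 2 from -0.059 to 0.141. For age on L4440 the medians were 0.02, 0.01 and 0.00, beside 0.12 for the 10 genes and 0.00 for all genes. Of 4 further cpg genes, only cpg-9 passed with edgeR in any contrast, falling between the ages over both foods (log2 fold change -0.76, SE 0.18, edgeR adjusted p = 0.0161). The groups of cpg-9 overlapped between the ages, and its adjusted p was 0.0628 without the 2 day 2 libraries highest in moulting genes.

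Other germline lists were counted in the same way. None of 18 oocyte regulators and none of 15 genes of germline proliferation and meiosis passed with edgeR, DESeq2 or limma-voom in the 5 comparisons. At an unadjusted edgeR p under 0.05 there were 0 oocyte regulators, and at most 3 of the 15 in a comparison. For bcat-1 RNAi at day 2 their medians were -0.11 and -0.13, and for age on L4440 they were 0.05 and -0.02 (all genes 0.00). In replicates 1, 2 and 3 of bcat-1 day 2 the mean deviation of the oocyte list was -0.16, 0.11 and -0.10. That of the germline list was -0.15, 0.03 and -0.17. The age estimates on L4440 were above 0 for 12 of the 18 oocyte regulators and 5 of the 15 germline genes. They were above 0 for all 10 eggshell and egg activation genes and for 49.8% of all genes. Summed over its members, the oocyte list stood lowest in replicate 1 of bcat-1 day 2 (11140 CPM), and the 10 eggshell and egg activation genes stood at 10770 CPM there, the second lowest of the 12 libraries.

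Genes of the zygotic embryo, which are switched on after fertilization, were counted too. On L4440, 3 of 13 tested fell, 2 rose and 8 did not pass, where 2.30% of all genes passed: end-1, an endoderm regulator, had a log2 fold change of -2.29 (SE 0.34, edgeR adjusted p = 0.00648), ceh-51 -1.84 (SE 0.27, adjusted p = 0.00549) and sdz-30 -1.50 (SE 0.17, adjusted p = 0.00137). tbx-37 rose by 1.90 (SE 0.42, adjusted p = 0.0409). On bcat-1 RNAi the same 3 genes fell and 10 did not pass, where 4.07% of all genes passed, with end-1 at -1.63 (SE 0.33, adjusted p = 0.0175). The summed level of the list was 72.4 to 81.1 CPM at day 1 and 43.3 to 74.1 CPM at day 2, far under that of the 10 genes.

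Moulting epidermis genes varied most between the day 2 libraries. Their sum over 10 genes was 379 CPM in L4440 day 2 replicate 1 and 383 CPM in bcat-1 day 2 replicate 1, against 122 to 268 CPM in the other 4 day 2 libraries and 78.7 to 162 CPM at day 1. In L4440 day 2, replicate 1 had the lowest values of all 10 genes except perm-4, for which replicate 3 was lower, and in bcat-1 day 2, replicate 1 was lowest for perm-2, perm-4, egg-1, egg-3, cpg-1 and cpg-3. Without these 2 libraries the age difference on L4440 was 0.38 for cpg-2 (SE 0.09, edgeR adjusted p = 0.0733) and 0.33 for cpg-3 (SE 0.07, adjusted p = 0.0579). Averaged over the foods, cpg-2 and cpg-3 then both passed (adjusted p = 0.0223 and 0.00938). The part of moulting-stage RNA in these results was not tested.

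**Figure D5:**
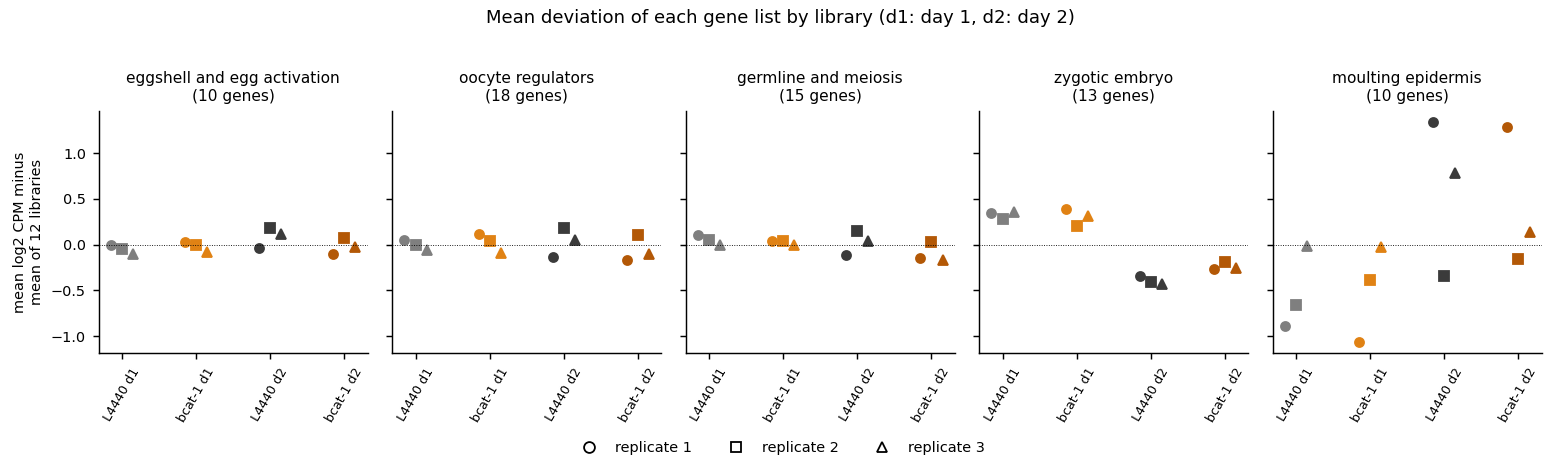
Mean deviation of each gene list from its mean over 12 libraries, in log2 CPM (vertical axis), by group (d1 is day 1, d2 is day 2); symbols are replicates. The means of the 10 eggshell and egg activation genes, the oocyte regulators and the germline genes deviate by at most 0.182. The mean of the zygotic embryo list is lower in all day 2 libraries, although single genes of it rose. That of the moulting epidermis list reaches 1.34 in L4440 day 2 replicate 1.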

How the data were processed

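RNA libraries of whole worms (TruSeq v2 kit, per the labels) were sequenced by the authors. Per the submitters' processing notes, bcl2fastq 1.8.4, STAR 2.4.1d, featureCounts 1.4.6-p4 and the build WBcel235 were used. The deposited counts are whole numbers of reads, 1 column for each of the 12 libraries. The annotation release, strand setting and treatment of multi-mapping reads are not given in the sources used here. A deposited RPKM table was not used. Symbols, positions and merged exon lengths came from Ensembl annotation, and 46449 of 46748 genes matched it.

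The filterByExpr function of edgeR 4.0.16 (R 4.3.3) kept 14567 genes, and TMM factors scaled the library sizes. All 12 libraries entered a quasi-likelihood model of the 4 group means (8 residual degrees of freedom, common dispersion 0.04). Tests were two-sided, and Benjamini-Hochberg adjustment covered the 14567 genes. The threshold was an adjusted p of 0.05. The procedure was tested on simulated data. Errors are SD for CPM and SE for log2 fold changes. Shares and floors cover counting error only, and 3 counts is the limit that a count of 0 allows.

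The 10 members and the gene lists were chosen with earlier results of these data known. All members were named, and of each list up to 4 genes past the test, those with the smallest adjusted p. Of 150 listed genes 146 were found. Alternatives were RLE, upper-quartile and no factors, DESeq2 1.42.0, limma-voom (limma 3.58.1), no filter (25099 genes), a strict filter (12133 genes), only the compared groups, no rRNA counts, and fits without each library or both rRNA-rich libraries. The contrasts averaged over foods or ages, the exon-length offset and the fits without both length-trend or both moulting-rich libraries were added after the data were seen.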

Additional observations from a re-analysis of the deposited data

How the results depend on the processing

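No member was called under any alternative for bcat-1 RNAi at day 1, at day 2 or averaged over the ages, for age on bcat-1 RNAi, or for the difference between days. For age on L4440 DESeq2 called 1 member (cpg-3) and no other alternative called any. For age over both foods the count was 1 with edgeR, 0 with library size only, without a filter and without both libraries with the most rRNA, and 2 (cpg-2 and cpg-3) with upper-quartile factors, the strict filter, DESeq2 and without both day 2 libraries highest in moulting genes. It ran from 0 to 2 with 1 library left out. Over 24 alternatives cpg-3 was called in 13, with a log2 fold change of 0.16 to 0.28 and an adjusted p of 0.00403 to 0.522, and cpg-2 in 5. Of 1720 member estimates under alternatives, 107 changed sign, none of them a called value. No paired analysis was possible because the labels give no replicate numbers, and those used here follow accession order. With 3 libraries per group, day 1 RNAi intervals reached 0.59 on the log2 scale.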

Other observations

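Outside the eggshell and egg activation genes, the lists of other cell types held a few genes that passed the edgeR test between the ages averaged over both foods, a contrast added after the values were seen. Of all 14567 genes tested, 2102 (14.4%) passed there, 1291 higher and 811 lower at day 2. In the intestine list 2 of 10 genes fell: asp-1, an aspartyl protease, by 0.83 on the log2 scale (SE 0.08, adjusted p = 7.26e-05) and vit-1, a yolk protein, by 0.54 (SE 0.12, adjusted p = 0.0131). These are 2 of 10 genes, and the 1 of 5 in the next list is likewise near the share of all genes. Of 5 genes of the somatic gonad, lim-7, which marks the gonadal sheath, rose by 0.81 (SE 0.23, adjusted p = 0.0367). Its values overlapped between the ages. Of the 5 estimates 3 were above 0 and 2 below. The mean deviation of the somatic gonad list was 0.26 in L4440 day 2 replicate 1, 0.25 in bcat-1 day 2 replicate 1 and from -0.15 to 0.04 in the other 4 day 2 libraries. Of 35 sperm genes 3 had enough counts to test, and fer-1, needed for sperm activation, rose by 1.08 (SE 0.21, adjusted p = 0.00651). Of the 3 estimates 2 were above 0 and 1 below, and the 35 genes summed to at most 8.95 CPM in a library. In the moulting epidermis list 5 of 10 genes rose and 1 fell, with mlt-9 at 3.12 (SE 0.76, adjusted p = 0.0187), mlt-8 at 2.01 (SE 0.42, adjusted p = 0.00944), mlt-11 also higher (adjusted p = 0.0196) and nas-37 at -0.44 (SE 0.11, adjusted p = 0.0223). The values of mlt-8, mlt-9 and mlt-11 overlapped between the ages, and the list summed to 379 and 383 CPM in replicate 1 of both day 2 groups, against 122 to 268 CPM in the other 4 day 2 libraries. Without those 2 libraries, left out after the values were seen, mlt-9 (1.98, SE 0.67, adjusted p = 0.0962), mlt-11 (1.18, SE 0.39, adjusted p = 0.0906) and lim-7 (0.41, SE 0.13, adjusted p = 0.0822) no longer passed the edgeR test. mlt-8 (1.46, SE 0.38, adjusted p = 0.0383), nas-37, asp-1, vit-1 and fer-1 passed without them.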
